A study of Mus musculus with 70 samples.

Results

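Vegfa and 9 genes of vascular endothelium, Kdr, Flt1, Tek, Cldn5, Pecam1, Cdh5, Esam, Slco1a4 and Ly6c1, were examined in dorsal hippocampus of mice that had run on a wheel, rested after running or never run. The 10 genes were taken by symbol from a table of 24346 genes in 70 RNA-seq libraries, and all 10 were found once each. The animals were male C57BL/6J mice of 12 weeks, housed singly, and each library came from the dorsal hippocampi of 1 animal. Groups are named by days of initial running, of sedentary delay and of reactivating running: 14-0-0 for running alone, 14-7-0 and 14-14-0 for running and then rest, 14-7-2 for running, rest and running again, 0-0-2 for the short run alone and 0-0-0 for sedentary animals. These 6 groups had a short object location memory (OLM) training before the tissue was taken, and the home cage group had neither a wheel nor training. Each group had 10 libraries, 5 from each of 2 harvest cohorts. Values are FPKM, fragments mapped per kilobase of transcript, scaled to the size of the library.

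Vascular endothelial growth factor A (VEGF-A), the product of Vegfa, is secreted in the brain mainly by cells outside the vessel wall and acts on endothelial cells through the receptors encoded by Kdr (VEGFR2) and Flt1 (VEGFR1). Kdr carries most of the mitogenic signal, Flt1 binds the ligand tightly and limits it, and Tek (Tie2) is the receptor for the angiopoietins, which steady the vessel. Pecam1, Cdh5 (VE-cadherin) and Esam encode adhesion molecules of endothelial cell contacts, and Cldn5 encodes the main claudin of the tight junctions that form the blood-brain barrier. Slco1a4 encodes an organic anion transporter of brain endothelium, and Ly6c1 a surface protein used as a marker of brain capillaries.

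The RefSeq table of promoters (GRCm38.p6, the assembly also called mm10) held 7 of the 10 genes, and Pecam1, Cdh5 and Esam were not matched. The 250 bases before the start of 5 of them are shown, those of the receptors Kdr, Flt1 and Tek and of Slco1a4 and Cldn5. With group means subtracted, the receptors were positively related between libraries (Pearson's r from 0.37 to 0.60), but not apart from the other genes. Kdr was closer to Pecam1 (r = 0.67) and Slco1a4 (0.66) than to Flt1 or Tek. Slco1a4 and Cldn5 varied in opposite directions (r = −0.51). Kdr lies on the minus strand at chr5:75978456-75978705, Flt1 on the minus strand at chr5:147726012-147726261, Tek on the plus strand at chr4:94739039-94739288, Slco1a4 on the minus strand at chr6:141856221-141856470 and Cldn5 on the plus strand at chr16:18776597-18776846, each window written 5′ to 3′ on the gene's strand. Capitals mark GGAAG, or CTTCC on the other strand, the core of many sites for ETS factors, the family to which endothelial regulators such as Erg and Fli1 belong.
Kdr: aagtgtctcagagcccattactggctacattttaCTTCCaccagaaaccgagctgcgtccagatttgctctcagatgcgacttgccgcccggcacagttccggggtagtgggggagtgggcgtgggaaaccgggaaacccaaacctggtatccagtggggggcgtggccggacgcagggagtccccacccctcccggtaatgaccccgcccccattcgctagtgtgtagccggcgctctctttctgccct
Flt1: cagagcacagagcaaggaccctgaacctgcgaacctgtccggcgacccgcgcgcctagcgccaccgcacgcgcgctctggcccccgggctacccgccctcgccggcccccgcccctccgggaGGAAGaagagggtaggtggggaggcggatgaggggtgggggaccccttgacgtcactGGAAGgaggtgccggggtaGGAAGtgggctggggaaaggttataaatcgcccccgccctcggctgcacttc
Tek: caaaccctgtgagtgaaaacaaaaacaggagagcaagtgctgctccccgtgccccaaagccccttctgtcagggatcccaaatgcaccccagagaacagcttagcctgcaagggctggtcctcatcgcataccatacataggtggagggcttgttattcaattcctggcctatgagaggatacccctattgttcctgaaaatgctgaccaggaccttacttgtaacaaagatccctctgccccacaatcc
Slco1a4: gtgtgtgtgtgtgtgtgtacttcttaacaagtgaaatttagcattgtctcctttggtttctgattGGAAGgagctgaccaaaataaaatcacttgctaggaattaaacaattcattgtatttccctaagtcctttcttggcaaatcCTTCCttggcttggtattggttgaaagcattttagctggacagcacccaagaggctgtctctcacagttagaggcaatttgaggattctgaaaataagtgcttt
Cldn5: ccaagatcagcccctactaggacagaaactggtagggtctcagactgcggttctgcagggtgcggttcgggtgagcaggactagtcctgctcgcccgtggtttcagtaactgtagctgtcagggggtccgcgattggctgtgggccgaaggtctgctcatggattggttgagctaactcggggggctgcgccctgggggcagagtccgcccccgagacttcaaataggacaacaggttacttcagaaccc
The letters GGAAG occurred 3 times in the Flt1 window, 1 time in that of Kdr, 2 times in that of Slco1a4 and 0 times in those of Tek and Cldn5, and 64.1% of the 32851 windows in the table held them at least once. ACGTG, the core of the hypoxia response element (CACGT on the other strand), was in 0 of these 5 windows and in 16.6% of all windows. It was in 1 of the 2 windows of Vegfa, a gene on the minus strand. That window lies at the downstream start (chr17:46025164-46025413), and the window of the upstream start (chr17:46032378-46032627) held 0. The share of G and C was 39.2% in the Slco1a4 window, 51.2% for Tek, 59.6% for Cldn5, 61.6% for Kdr and 70.4% for Flt1, and the median of all windows was 52.4%.

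All 10 genes were detected in all 70 libraries. Ly6c1 had the highest mean over the 70 libraries (40.9 FPKM, range 32.3 to 54.8), followed by Cldn5 (26.5 FPKM, 9.87 to 47.6), Vegfa (14.1 FPKM, 7.81 to 20.8) and Slco1a4 (13.6 FPKM, 9.57 to 20.9). Flt1 (9.03 FPKM, 7.57 to 11.5), Esam (8.74 FPKM, 4.80 to 11.5) and Pecam1 (7.07 FPKM, 5.25 to 9.23) lay in the middle, and Tek (4.03 FPKM, 2.98 to 5.42), Cdh5 (3.69 FPKM, 2.59 to 4.90) and Kdr (3.36 FPKM, 1.96 to 6.02) were lowest. Vegfa and Slco1a4, Flt1 and Esam, and the 3 lowest genes overlapped with their neighbours in this order over most of their ranges. The members did not share 1 spread: the coefficient of variation within groups was 30.1% for Cldn5 and 22.8% for Kdr, and from 10.2% (Flt1) to 15.9% (Vegfa) for the others. The tissue is bulk hippocampus, so fewer endothelial cells and less RNA per endothelial cell cannot be told apart in any value given here.

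**Figure D1:**
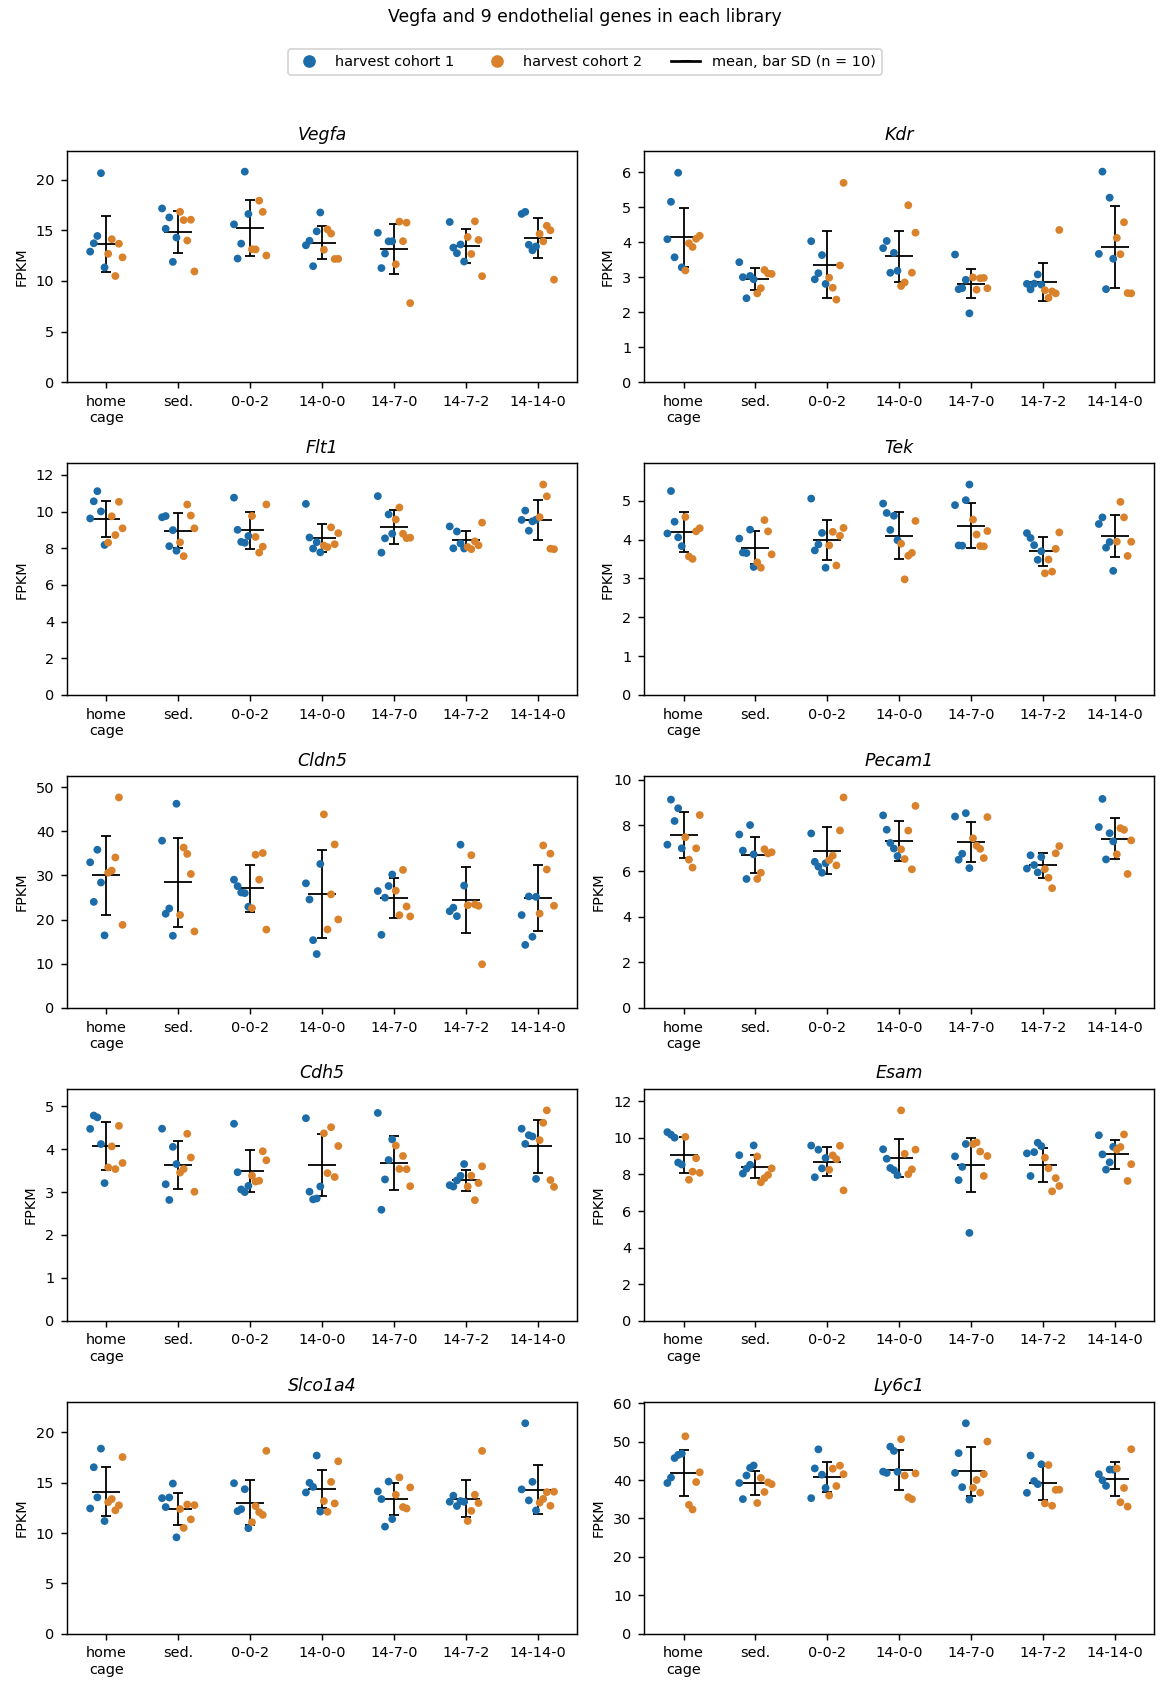
Level of each of the 10 genes (y axis, FPKM from 0) in the 7 groups (x axis, sed. for sedentary); each point is 1 library coloured by harvest cohort, and bars give mean and SD (n = 10). Kdr has a group of high libraries in home cage, 14-0-0 and 14-14-0, and Cldn5 has the widest spread within groups.

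The libraries differed in depth. The FPKM table does not state it, and read totals that the study lists under barcode names could not be matched to samples through the labels. From the size of the smallest steps in the values, the relative depth ran from 0.342 to 1.46 (median 0.785), apart from 14-7-0 replicate 4, at 0.0372. Sedentary replicate 6 stood apart in neuronal genes, with 1777 FPKM summed over 8 markers where the other libraries had 3261 to 5849, and was highest in oligodendrocyte genes, with 7193 FPKM over 8 markers where the other 6 groups reached at most 5106. Libraries also differed in choroid plexus, the secretory epithelium of the ventricle beside the hippocampus, whose capillaries are fenestrated and depend on VEGF-A. The sum of 14 choroid plexus markers ran from 26.3 to 382 FPKM in sedentary libraries but up to 16299 FPKM in 14-0-0 and 22128 FPKM in 14-14-0. The choroid plexus score was the mean log2 level of these markers, each centred on its mean over the 70 libraries. It fell into 2 sets with a gap from 1.69 to 2.63: 15 libraries lay above (5 of 14-0-0, 5 of 14-14-0, 3 of home cage, 1 of 14-7-2, 1 of 0-0-2) and 55 below.

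Running was compared with rest over 20 libraries at a time, with limma on log2(FPKM + 0.1) of the 12994 genes whose mean reached 1 FPKM, and a gene was called at an unadjusted p under 0.05, the threshold of the study. With Benjamini-Hochberg adjustment over all genes, limma left 0 genes in each of the 10 comparisons, and the calls below rest on the unadjusted p. The p-values measure the spread between these animals. The 6 comparisons with sedentary share the same 10 sedentary libraries, and the 4 between exercise groups reuse the 14-0-0 and 14-7-0 libraries, so none is an independent repeat of another.

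Against sedentary, 2 of the 10 genes were called after 14 days of running (14-0-0), both higher, where 9.15% of all genes were called in either direction. The 2 were Kdr, the main VEGF receptor, and Slco1a4, the barrier transporter. In 14-7-0, after 7 days of rest, 1 was called (Tek, higher), where 3.26% of all genes were. In 14-14-0 2 were called, again Kdr and Slco1a4, both higher, where 4.95% of all genes were. In 14-7-2 and 0-0-2 0 of 10 were called, with 4.39% and 2.37% of all genes called. Home cage animals had 2 called, Kdr and Pecam1, both higher than in sedentary, where 2.30% of all genes were called. Vegfa, Flt1, Cldn5, Cdh5, Esam and Ly6c1 were called in none of the 10 comparisons.

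**Figure D2:**
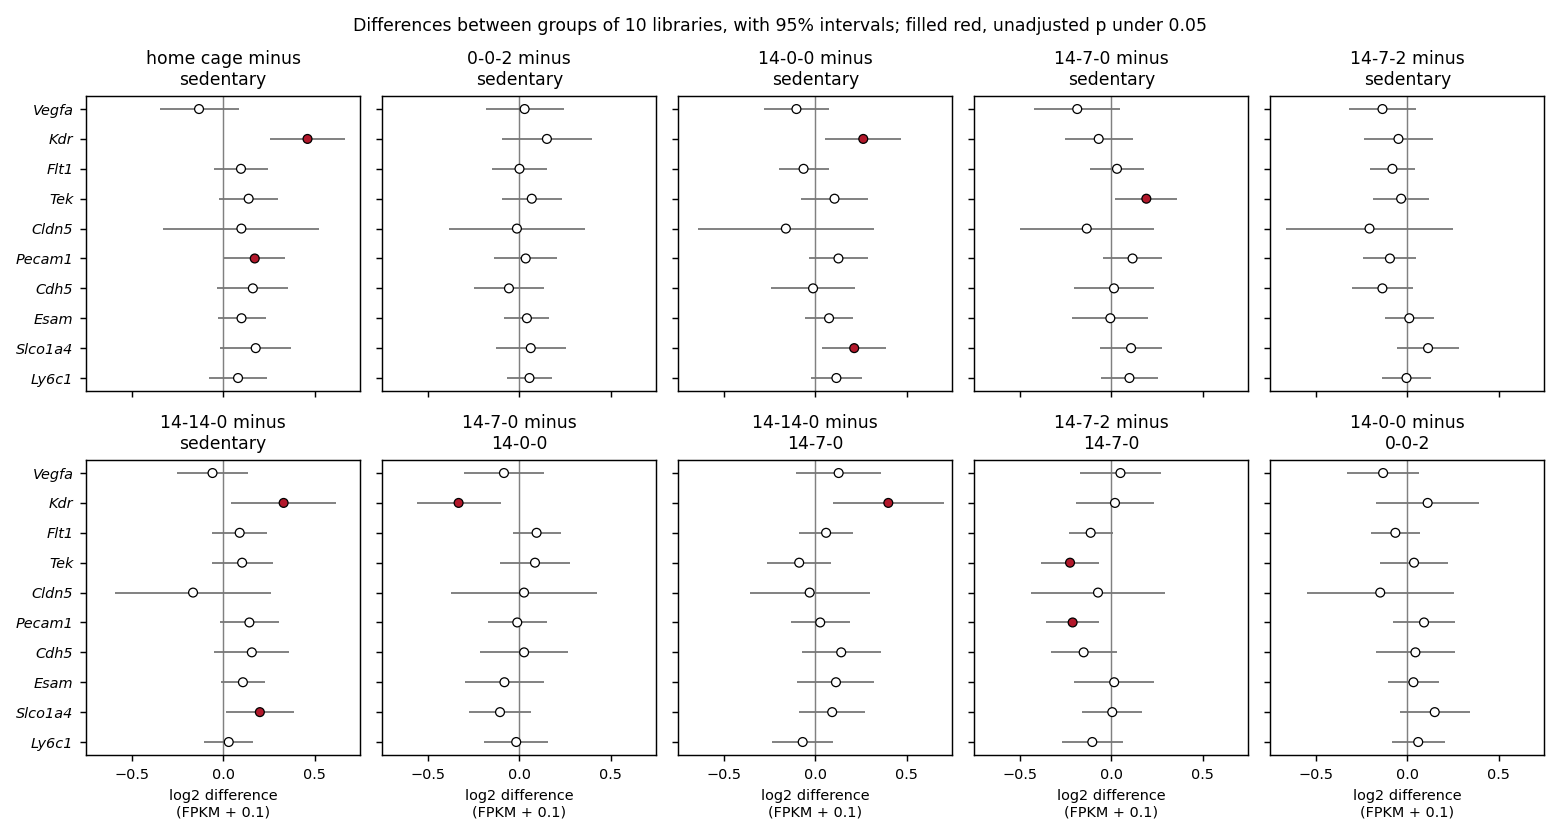
Difference of each gene in the 10 comparisons (x axis, log2(FPKM + 0.1) scale; bars, 95% intervals from limma; 10 libraries per group), with red points for unadjusted p under 0.05. Kdr carries 5 of the 11 red points, and its interval lies furthest from 0 in home cage minus sedentary.

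The ligand came first. Vegfa ran from 10.9 to 17.2 FPKM in sedentary (median 15.6), from 11.5 to 16.8 FPKM in 14-0-0 (median 13.8), from 7.81 to 15.9 FPKM in 14-7-0 (median 13.9) and from 10.1 to 16.8 FPKM in 14-14-0 (median 14.3). With reactivating running it ran from 10.5 to 15.9 FPKM in 14-7-2 (median 13.5), and from 12.2 to 20.8 in 0-0-2 (median 14.7), and in home cage from 10.5 to 20.7 (median 13.3). All groups overlapped, and in 14-0-0 and in home cage 9 of 10 libraries were below the sedentary median. The log2 difference from sedentary was −0.10 in 14-0-0 (95% interval −0.28 to 0.08) and −0.19 in 14-7-0 (interval −0.42 to 0.05). With reactivating running it was −0.14 in 14-7-2 (interval −0.32 to 0.05) and 0.03 in 0-0-2 (interval −0.18 to 0.24). Expressed as a ratio, the 14-0-0 interval went from 0.823 to 1.05.

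Kdr moved most. It ran from 2.40 to 3.43 FPKM in sedentary (median 3.02), from 2.75 to 5.06 in 14-0-0 (median 3.44), from 1.96 to 3.65 in 14-7-0 (median 2.80) and from 2.54 to 6.02 in 14-14-0 (median 3.66). It ran from 2.41 to 4.35 FPKM in 14-7-2 (median 2.72), from 2.36 to 5.69 in 0-0-2 (median 3.05) and from 3.19 to 5.98 in home cage (median 4.02). The groups overlapped, but all 10 home cage libraries lay above the sedentary median and 8 of them above the highest sedentary library, against 5 in 14-0-0 and 7 in 14-14-0. Kdr was higher than in sedentary by 0.26 ± 0.10 (log2, SE) in 14-0-0 (p = 0.0163), by 0.33 ± 0.14 in 14-14-0 (p = 0.0264) and by 0.46 ± 0.10 in home cage (p = 0.000145), with limma's Benjamini-Hochberg adjusted p of 0.400, 0.974 and 0.941. In 14-7-0 the difference was −0.07 ± 0.09 and in 14-7-2 −0.05 ± 0.09.

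Between exercise groups Kdr fell and rose with the delay. In 14-7-0 it was 0.33 ± 0.11 lower on the log2 scale than in 14-0-0 (p = 0.00686), with 9 of 10 libraries below the 14-0-0 median, and it was the 1 gene of the 10 called, where 5.63% of all genes were. In 14-14-0 it was 0.40 ± 0.15 higher than in 14-7-0 (p = 0.0123), again the 1 of 10 called, where 6.44% of all genes were. The limma adjusted p was 0.721 and 0.746. Within harvest cohort 1 the 2 differences were −0.37 (p = 0.0399) and 0.56 (p = 0.0386), and within cohort 2 they were −0.29 (p = 0.107) and 0.24 (p = 0.172) by limma.

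The choroid plexus markers moved in the same comparisons as Kdr. All 14 were called higher than in sedentary in 14-0-0 and in 14-14-0 and 7 in home cage, and 0 in the other 3 groups. All 14 were lower in 14-7-0 than in 14-0-0 and higher in 14-14-0 than in 14-7-0. In the 15 libraries with a score of 2 or more, Kdr ran from 2.85 to 6.02 FPKM (median 4.35), and in the 55 others from 1.96 to 4.10 (median 2.98). Among the 15, the r of Kdr with the score was 0.63 (rho = 0.60, permutation p = 0.0106, adjusted p = 0.212 over 20 relations of the 10 genes), and it was 0.70 in the 7 libraries of cohort 1, 0.56 in the 8 of cohort 2 and 0.53 without the 2 most extreme. Among the 55 it was 0.15 (rho = 0.10, permutation p = 0.285, adjusted p = 0.682). No r over all 70 libraries is given, since the scores fell into 2 sets. Adjusted for this score, the difference from sedentary was 0.13 in 14-0-0 (p = 0.282) and 0.04 in 14-14-0 (p = 0.749), and in 14-7-0 against 14-0-0 it was −0.18 (p = 0.143). With only libraries under a score of 2, which left 5 of 14-0-0 and 5 of 14-14-0, the differences from sedentary were 0.12 (p = 0.234) and 0.01 (p = 0.936). Kdr was not alone in differing between the 2 sets. Slco1a4 had a median of 16.5 FPKM in the 15 libraries and 12.8 FPKM in the 55 others, and Pecam1 of 7.81 and 6.73 FPKM. Cldn5 went the other way, with a lower median in the 15.

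The home cage difference was also called without those libraries. Kdr was 0.32 higher in home cage with the score as a covariate (p = 0.00163) and 0.33 higher in the 7 home cage libraries with a score under 2 (p = 0.000753). It was 0.53 in cohort 1 (p = 0.00958) and 0.39 in cohort 2 (p = 0.00566), and leaving out each of the 20 libraries in turn gave 0.40 to 0.50. This is the difference between trained sedentary animals and untrained animals in their home cages, so running is not part of it.

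**Figure D3:**
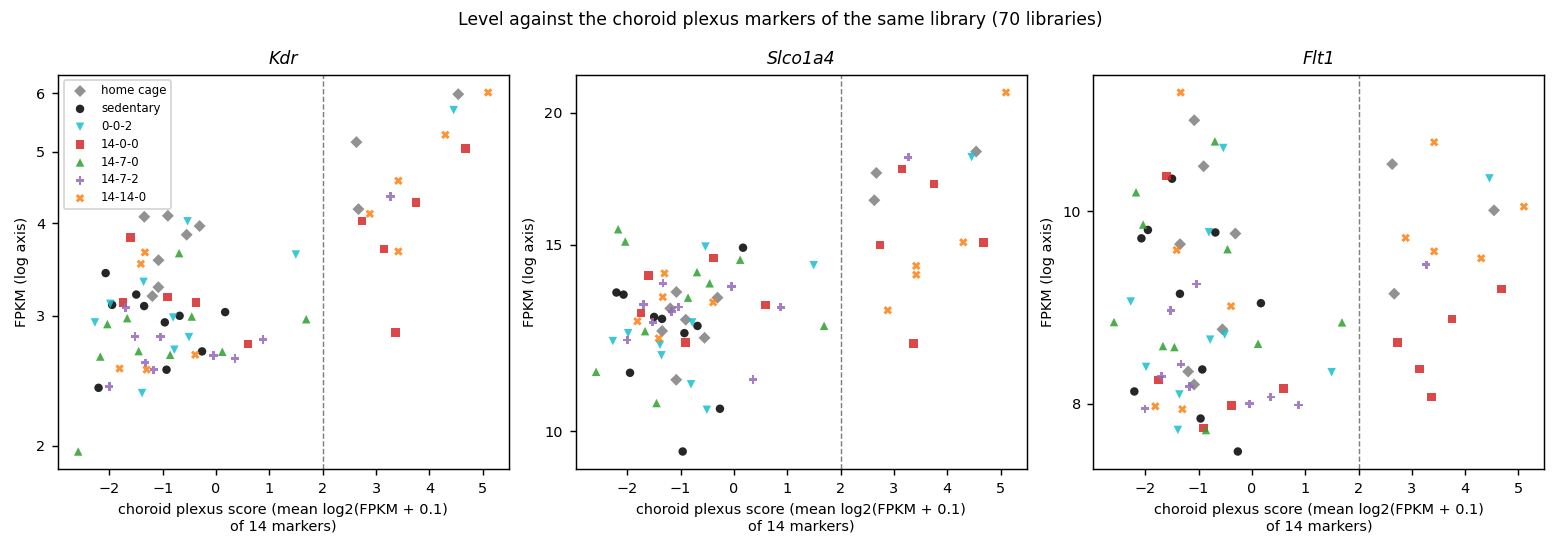
FPKM (log axis) of Kdr, Slco1a4 and Flt1 in each library against the choroid plexus score of that library (x axis, mean log2(FPKM + 0.1) of 14 markers, each centred on its mean over the 70 libraries). Symbols are groups and the dashed line is a score of 2. The Kdr median is 2.98 FPKM left of the line and 4.35 FPKM right of it, and the Flt1 median is 8.62 and 9.47 FPKM.

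Flt1, the other VEGF receptor, was not called with Kdr. It ran from 7.57 to 10.4 FPKM in sedentary (median 9.04), from 7.78 to 10.4 in 14-0-0 (median 8.28), from 7.76 to 10.8 in 14-7-0 (median 8.79), from 7.95 to 9.40 in 14-7-2 (median 8.21) and from 7.95 to 11.5 in 14-14-0 (median 9.55). The groups overlapped throughout, and the difference between 14-0-0 and sedentary was −0.06 ± 0.07 on the log2 scale, with a 95% interval of −0.20 to 0.07. In home cage it was 0.10 ± 0.07 (p = 0.178).

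Tek, the angiopoietin receptor, ran from 3.28 to 4.50 FPKM in sedentary (median 3.66) and from 3.83 to 5.42 in 14-7-0 (median 4.17), where all 10 libraries lay above the sedentary median. The difference of 0.19 ± 0.08 (log2, p = 0.0284, limma's adjusted p = 0.968) was the 1 call in 14-7-0. It was close to the threshold: leaving out 1 library ended it for 6 of the 20, sedentary replicates 4, 5 and 6 and 14-7-0 replicates 0, 3 and 4 (p from 0.0502 to 0.0563), and it was 0.27 in cohort 1 (p = 0.0675) and 0.11 in cohort 2 (p = 0.320).

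Reactivating running after the delay was compared with the delay alone in 14-7-2 against 14-7-0, where 2 of 10 genes were called, both lower, and 5.39% of all genes. Tek ran from 3.13 to 4.18 FPKM in 14-7-2 (median 3.73), with 6 of 10 libraries under the lowest 14-7-0 library, and was 0.23 ± 0.08 lower (log2, p = 0.00834). Pecam1, the adhesion molecule, ran from 5.25 to 7.09 FPKM in 14-7-2 (median 6.19) and from 6.13 to 8.54 in 14-7-0 (median 7.04), and was 0.21 ± 0.07 lower (p = 0.00636), with 5 libraries under the lowest of 14-7-0. The limma adjusted p was 0.660 and 0.640. Both calls were kept after adjustment for the choroid plexus score (−0.22, p = 0.0119, and −0.24, p = 0.00208) and without each of the 20 libraries in turn. In cohorts 1 and 2 Tek differed by −0.24 (p = 0.0698) and −0.21 (p = 0.0577) and Pecam1 by −0.19 (p = 0.118) and −0.24 (p = 0.0410).

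The other junction and adhesion genes were not called in 14-7-2 against 14-7-0. Cdh5 differed by −0.15 ± 0.09 (p = 0.0959), Cldn5 by −0.07 ± 0.18 (p = 0.682) and Esam by 0.02 ± 0.11 (p = 0.882). The receptor Flt1 differed by −0.11 ± 0.06 (p = 0.0637), and 4 of the 10 differences were positive. Genes outside the 10 that were called lower in this comparison included the endothelial Podxl (−0.21, p = 0.00298) and Cd34 (−0.33, p = 0.00236), and 3 of 12 pericyte genes, Abcc9 (−0.24, p = 0.00278), Vtn (−0.28, p = 0.0291) and Kcnj8 (−0.38, p = 0.0369), whose products mark the mural cells of capillaries. Nrp1 and Nrp2, co-receptors for VEGF, were called higher (0.16, p = 0.0310, and 0.16, p = 0.0351). Oligodendrocyte genes also moved: 4 of 8 were lower in 14-7-2 than in 14-7-0 and all 8 differences were negative (median −0.32). Of 8 microglia genes 2 were lower and all 8 differences were negative (median −0.14), and 1 of 8 astrocyte genes was lower (median −0.09). Their part in the vascular differences was not tested.

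Pecam1 was also called in home cage against sedentary, at 0.17 ± 0.08 (p = 0.0439). It ran from 5.65 to 8.02 FPKM in sedentary (median 6.80) and from 6.15 to 9.13 in home cage (median 7.32), with 4 home cage libraries above the highest sedentary one. The call was lost in 11 of 20 fits that left out 1 library (home cage replicates 1, 2, 3, 5 and 9 and sedentary replicates 2, 4, 5, 6, 8 and 9, p from 0.0505 to 0.0892), the difference was 0.08 after adjustment for the choroid plexus score (p = 0.315) and 0.14 after adjustment for the GC slope described below (p = 0.0808).

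Cdh5 and Esam, the remaining adhesion genes, differed little between groups. Group means of Cdh5 ran from 3.27 ± 0.25 FPKM (SD, n = 10) in 14-7-2 to 4.07 ± 0.56 in home cage, and those of Esam from 8.42 ± 0.63 in sedentary to 9.09 ± 0.81 in 14-14-0. The difference of Cdh5 from sedentary in 14-0-0 was −0.01 (95% interval −0.24 to 0.22), and that of Esam was 0.08 (−0.06 to 0.21).

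Slco1a4, the transporter, ran from 9.57 to 14.9 FPKM in sedentary (median 12.7), from 12.1 to 17.7 in 14-0-0 (median 14.3) and from 12.2 to 20.9 in 14-14-0 (median 13.7). The groups overlapped, with 8 of 10 libraries of 14-0-0 and 9 of 10 of 14-14-0 above the sedentary median. It was 0.21 ± 0.08 higher on the log2 scale in 14-0-0 (p = 0.0185) and 0.20 ± 0.09 higher in 14-14-0 (p = 0.0344), with limma's adjusted p of 0.409 and 0.974. The difference was 0.11 ± 0.08 in 14-7-0, 0.11 ± 0.08 in 14-7-2 and 0.06 ± 0.09 in 0-0-2. After adjustment for the choroid plexus score the 2 called differences were 0.12 (p = 0.231) and 0.08 (p = 0.398). In 14-14-0 the call was also lost without any 1 of sedentary replicates 4, 6 and 8 and 14-14-0 replicates 1 and 3 (p from 0.0536 to 0.0706), and in this comparison Kdr lost its call without 14-14-0 replicate 1 or 3 (p = 0.0547 and 0.0549).

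14 days of running against 2 days was the last comparison of exercise. Between 14-0-0 and 0-0-2 0 of 10 genes were called and 1.56% of all genes were, with Kdr at 0.11 ± 0.14 and Slco1a4 at 0.15 ± 0.09.

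Ly6c1 was the most abundant and among the steadiest of the genes. Its group means ran from 39.2 ± 4.4 FPKM (SD, n = 10) in 14-7-2 to 42.6 ± 5.1 in 14-0-0, a ratio of 1.09. The difference from sedentary in 14-0-0 was 0.12 on the log2 scale with a 95% interval of −0.02 to 0.26.

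Cldn5 had the widest intervals. It ran from 16.3 to 46.2 FPKM in sedentary (median 26.4), from 12.2 to 43.8 in 14-0-0 (median 25.1) and from 9.87 to 37.0 in 14-7-2 (median 23.2), so that libraries of 1 group differed more than any 2 group medians. The difference from sedentary in 14-0-0 was −0.16 ± 0.23 on the log2 scale, with a 95% interval of −0.64 to 0.32.

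The level of Cldn5 varied between libraries with a measure of base composition, and it also differed between the 2 sets of choroid plexus score. The causes were not tested. Cldn5 ran from 9.87 to 31.3 FPKM in the 15 libraries with a score of 2 or more, and from 15.3 to 47.6 FPKM in the 55 others. Its median was lower in the 15. Within these sets its r with the score was −0.03 and −0.09. For each library, the slope of log2 level (each gene centred on its mean) on transcript GC content was fitted over the 12521 tested genes with a known GC content (96.4%), and it ran from −0.56 to 0.44 log2 units per 10% GC. Transcripts of Cldn5 had 60.5% GC, above 96.3% of tested genes, and those of Slco1a4 40.3%, above 6.80%. Over the 70 libraries, with group means subtracted, Cldn5 rose with the slope (r = 0.84, rho = 0.79) and Slco1a4 fell with it (r = −0.71, rho = −0.70), each at an adjusted permutation p of 5e-05 over the 10 genes, from 1e-05, the smallest the permutations could give. The values held within both harvest cohorts (0.80 and 0.86 for Cldn5, −0.64 and −0.79 for Slco1a4) and without the 2 libraries of most extreme slope (0.80 and −0.69). Relations of other genes with the slope were weaker: Kdr had r = −0.42 (rho = −0.34, adjusted permutation p = 0.000767), Pecam1 r = −0.39 (rho = −0.37, adjusted p = 0.00205), Cdh5 r = 0.31 (rho = 0.30, adjusted p = 0.0252) and Tek r = −0.28 (rho = −0.32, adjusted p = 0.0432). In cohorts 1 and 2 the r of Kdr was −0.27 and −0.51 and that of Pecam1 −0.20 and −0.52, and without the 2 libraries they were −0.32 and −0.38. The r of the remaining 4 genes did not pass (adjusted p from 0.0549 to 0.170). The slope was fitted on the same values, with Cldn5 and Slco1a4 among the genes. Among the genes named below, r was 0.83 for Vwa1 (57.3% GC) and 0.19 for Kank2 (57.4% GC). Vwa1 was picked for its likeness to Cldn5 and Kank2 for its likeness to the endothelial mean, so this pair cannot bear on the part of GC content. The slopes of the groups averaged from −0.04 ± 0.20 (SD) in 14-0-0 to 0.07 ± 0.21 in sedentary.

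With the slope as a covariate, Slco1a4 differed from sedentary by 0.14 in 14-0-0 (p = 0.0306) and by 0.14 in 14-14-0 (p = 0.0347), against 0.21 and 0.20 without it. Cldn5 was then 0.29 higher in home cage than in sedentary (p = 0.0156), where it had been 0.10 (p = 0.632). With both the slope and the choroid plexus score as covariates, the difference of Cldn5 in 14-0-0 turned from −0.16 to 0.29 and was called (p = 0.0397). With the slope alone as covariate, Kdr kept its calls in all 5 comparisons. With both covariates Kdr kept its call in home cage against sedentary (0.32, p = 0.00152, limma) and lost the others. Transcripts of Kdr had 49.4% GC, beside a median of 49.7%, and its r with the slope was −0.42.

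**Figure D4:**
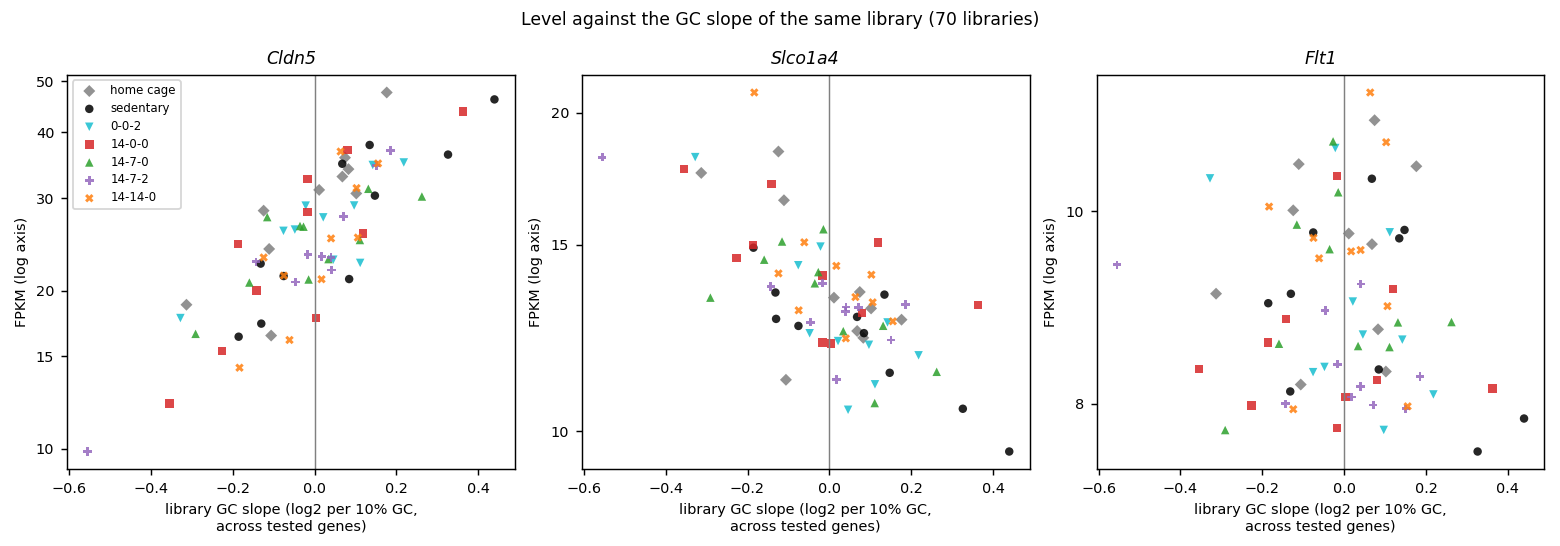
FPKM (log axis) of Cldn5, Slco1a4 and Flt1 in each library against the GC slope of that library (x axis, log2 units per 10% transcript GC); symbols are groups. Cldn5 rises and Slco1a4 falls along the axis (r = 0.84 and −0.71 with group means subtracted), and Flt1 shows little of either (r = −0.17).

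Within groups the 9 endothelial genes did not form 1 block. Pecam1 (r = 0.66), Cdh5 (0.66), Flt1 (0.62) and Tek (0.53) followed the mean of the other endothelial genes, with adjusted permutation p of at most 5e-05, and Kdr (0.42), Esam (0.32) and Slco1a4 (0.29) did so less closely, with adjusted p of 0.000780, 0.0150 and 0.0297. Rank correlations of these 7 were from 0.28 (Slco1a4) to 0.67, and r without the 2 most extreme libraries from 0.26 to 0.67. In cohorts 1 and 2 the r of Pecam1 was 0.75 and 0.57 and that of Kdr 0.52 and 0.31. Cldn5 (r = −0.16, rho = −0.10) and Ly6c1 (0.02, rho = 0.04) did not pass the test, nor did Vegfa (0.14, rho = 0.08).

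Of the 36 pairs of endothelial genes 26 had a positive r and the median was 0.27. The highest was Kdr with Pecam1 (0.67) and the lowest Cldn5 with Slco1a4 (−0.51). Vegfa had a median r of 0.05 with the 9, from −0.20 to 0.22. The points share library depth, GC slope and choroid plexus content, and these correlations are descriptions of the 70 libraries.

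**Figure D5:**
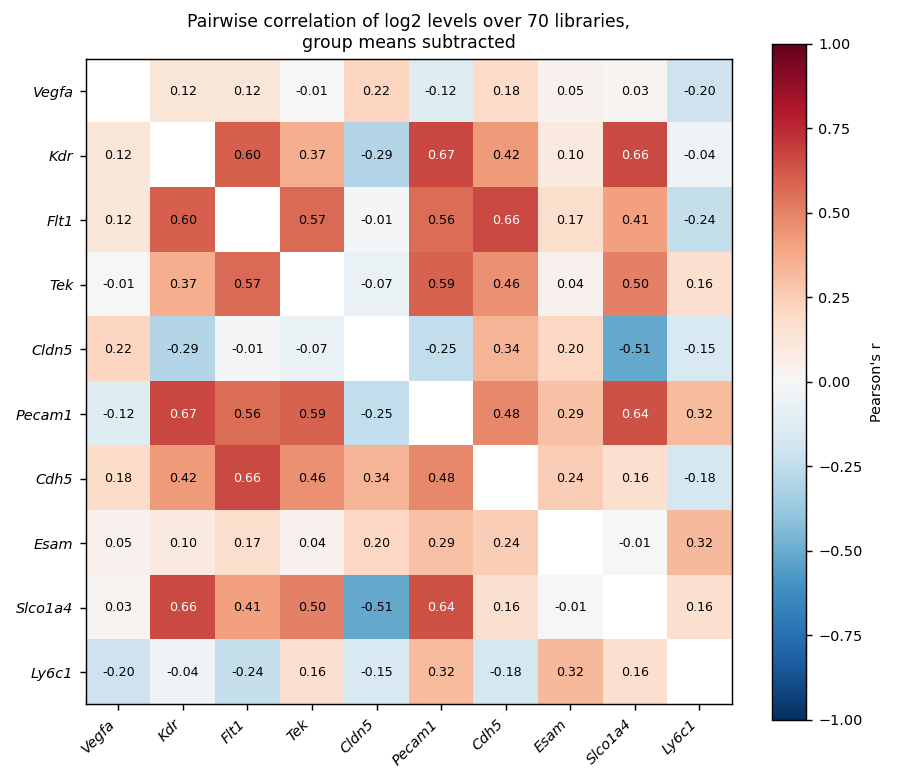
Pearson's r of log2 level for each pair of the 10 genes over 70 libraries, with group means subtracted (colour scale from −1 to 1). Kdr, Flt1, Tek, Pecam1 and Cdh5 are positively related to each other (0.37 to 0.67), and Cldn5 is negative with Slco1a4 (−0.51).

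Among all 12994 tested genes, those most like the mean of the 9 endothelial genes included Mmrn2 (r = 0.74), Bgn (0.70), Uaca (0.70), Vwf (0.70), Cav1 (0.67), Lhfp (0.67), Kank2 (0.67), Ptrf (0.66) and Cd93 (0.66), over 70 libraries with group means subtracted. Mmrn2, Vwf and Cd93 are endothelial genes, and Cav1 and Ptrf encode parts of caveolae. The meningeal fibroblast list also followed the mean of the 9 (r = 0.66, rho = 0.68). For the endothelial identity list r was 0.87, for the barrier list 0.69, for vascular smooth muscle 0.51 and for pericytes 0.42. Those most like Vegfa were Rgl2 (0.75), Usp19 (0.73), Krba1 (0.72), Pkd1 (0.71) and Lama5 (0.71). For 2 genes chosen after their values were seen, the most alike were Timp3 (0.85), Msrb3 (0.84) and Vcam1 (0.82) for Kdr, and Vwa1 (0.92), Hdac5 (0.90) and Rbm42 (0.90) for Cldn5. The GC content was from 57.3% to 61.5% in the 3 genes most like Cldn5. It was from 52.6% (Krba1) to 61.0% (Rgl2) in those named for Vegfa, and from 40.1% (Vcam1) to 46.8% (Timp3) in those named for Kdr.

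The pathway around the 10 genes had few calls, and the share of all genes called in each comparison with sedentary, from 2.30% in home cage to 9.15% in 14-0-0, stands beside the counts. Of 12 further VEGF and angiopoietin ligands and receptors, 8 passed the minimum, and against sedentary the only call was in 14-14-0, where Ptprb, the phosphatase that acts on Tie2, was higher (0.25, p = 0.0259). Of 16 genes of VEGF receptor signalling, all tested, 1 was called in 14-0-0, the adaptor Gab1, lower by 0.32 (p = 0.0332), and Gab1 was also lower in 14-7-2 (−0.31, p = 0.0280) and 0-0-2 (−0.38, p = 0.0243). In home cage 1 was called, Pxn, the focal adhesion protein paxillin, lower by 0.21 (p = 0.0388). Hspb1, a small heat shock protein, was lower in 14-7-2 than in sedentary (−0.64, p = 0.0385) and higher in 14-14-0 than in 14-7-0 (0.65, p = 0.000613).

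Of 11 tested tip cell and Notch genes, which direct vessel sprouting, 2 were lower than sedentary in 14-0-0, Unc5b (−0.39, p = 0.0298) and Pdgfb (−0.23, p = 0.0446), 2 in 14-7-0, Pdgfb (−0.26, p = 0.00858) and Hey2 (−0.32, p = 0.0460), 1 in 14-7-2, Hey2 (−0.25, p = 0.0392), and 1 in 0-0-2, Unc5b (−0.41, p = 0.0457), and 0 were higher in any comparison with sedentary. Of 14 tested genes of hypoxia and Vegfa control, Ndrg1 was lower in 14-0-0 (−0.38, p = 0.0300), 14-7-2 (−0.42, p = 0.0208) and 0-0-2 (−0.43, p = 0.0410), and Pdk1 was higher in 14-0-0 (0.18, p = 0.0321). Hif1a, Epas1 and the other 10 were called in none of the comparisons with sedentary when all libraries were used. Ndrg1 is also strongly expressed in oligodendrocytes, and the 8 oligodendrocyte genes had median differences of −0.27, −0.28 and −0.46 in these 3 comparisons, with 0, 0 and 5 called lower. Without sedentary replicate 6, the library with most oligodendrocyte RNA, these medians were −0.14, −0.15 and −0.34, with 0, 0 and 1 called lower. Without it Ndrg1 was called in 14-7-2 (−0.30, p = 0.0338) but not in 14-0-0 (−0.26, p = 0.0503) or 0-0-2 (−0.32, p = 0.0833), and Gab1 was called in 14-7-2 (−0.21, p = 0.0426) and 0-0-2 (−0.28, p = 0.0459) but not in 14-0-0 (−0.23, p = 0.0591). Unc5b was called in 14-0-0 (−0.26, p = 0.0463) but not in 0-0-2 (−0.29, p = 0.0908). The calls of Pdgfb in 14-0-0 (p = 0.0564), Hey2 in 14-7-0 and 14-7-2 (p = 0.0924 and 0.0764), Pdk1 in 14-0-0 (p = 0.0526) and Hspb1 in 14-7-2 (p = 0.0778) were also lost, and Angptl4, a tip cell and Notch list member, was then called higher in 14-0-0 (0.36, p = 0.0414), 14-7-0 (0.37, p = 0.0373) and 14-14-0 (0.42, p = 0.0411). In 14-14-0 Epas1 was then also called higher (0.15, p = 0.0485, limma) and Ldha lower (−0.13, p = 0.0488). Of the VEGF receptor signalling genes, Src was then called lower in 14-0-0 (−0.20, p = 0.0310) and Shb higher in 14-7-0 (0.21, p = 0.0478). The part of oligodendrocytes in the main values of these genes was not tested.

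Of 18 tested endothelial identity genes 3 were higher in 14-0-0 than in sedentary, Clec14a (0.35, p = 0.0157), Cd93 (0.29, p = 0.0184) and Emcn (0.29, p = 0.0301), and 4 in 14-14-0, these 3 and Podxl (0.29, p = 0.0104). In home cage 4 were higher, Podxl (0.31, p = 0.00146), Cd93 (0.36, p = 0.00327), Clec14a (0.41, p = 0.0230) and the ETS factor Ets1 (0.22, p = 0.0298). The median difference of the 18 was 0.07, 0.13 and 0.11 in the 3 comparisons, beside 0.01, −0.01 and −0.01 for all genes tested. All genes were called at 9.15%, 4.95% and 2.30% in these comparisons, in either direction. In 14-7-2 0 of the 18 were higher and 1, Icam2, was lower (−0.26, p = 0.0294), with a median of −0.03. Choroid plexus markers were called higher in the same 3 groups (14, 14 and 7 of 14), as were meningeal fibroblast genes (5, 7 and 5 of 9), and their part in the endothelial values was not tested. Without sedentary replicate 6 the median of the 18 was 0.02 in 14-0-0, 0.07 in 14-14-0 and 0.08 in home cage, and Cd93 lost its call in 14-14-0 (p = 0.0561).

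Of 25 barrier junction and transport genes 9 were higher in 14-0-0 than in sedentary, where 9.15% of all genes were called, among them the transporters Slco1c1 (0.54, p = 0.00328), Slc38a5 (0.65, p = 0.00442) and Slc22a8 (0.33, p = 0.00542) and the membrane protein Itm2a (0.27, p = 0.00437). In 14-14-0, where 4.95% of all genes were called, 5 were higher and 1 lower, and the higher ones included Slc22a8 (0.34, p = 0.00271), Abcc4 (0.39, p = 0.00891), Cgnl1 (1.09, p = 0.00922) and Ocln (0.36, p = 0.0115), of which several are also made by choroid plexus epithelium or meninges. Of 3 genes listed for fenestrated endothelium, Plvap was higher by 0.52 (p = 0.00519) and Igfbp3 by 0.42 (p = 0.0138) in 14-14-0. The third, Aqp1, is also an abundant gene of choroid plexus epithelium. Its mean over the 70 libraries was 4.55 FPKM and its median 0.368 FPKM. Its difference in 14-14-0 was 2.63 (p = 0.0120), and the median of the 14 choroid plexus markers was 2.37. The part of choroid plexus or meninges in the values of the barrier and fenestrated endothelium genes was not tested. Meningeal fibroblast genes were higher in both (5 and 7 of 9 tested, and 5 and 4 without sedentary replicate 6). In the 3 groups with 0 of 14 choroid plexus markers called, the barrier genes called were 1 higher (Tfrc, 0.34, p = 0.0209) and 1 lower (Mfsd2a, −0.15, p = 0.0198) in 14-7-0, 3 higher in 14-7-2, Tfrc (0.43, p = 0.00339), Slc22a8 (0.21, p = 0.00618) and Slc38a5 (0.48, p = 0.0377), and 2 higher in 0-0-2, Slc22a8 (0.28, p = 0.00507) and Slc38a5 (0.48, p = 0.0121). In home cage, with 7 of the 14 markers higher, 2 barrier genes were higher and 3 lower. The shares of all genes called in these 4 comparisons were 3.26%, 4.39%, 2.37% and 2.30%. Without sedentary replicate 6, limma no longer called Slc38a5 in 14-7-2 (p = 0.0776), Slco1c1 in 14-14-0 (p = 0.0631) or Slc2a1 in home cage (p = 0.0903). Slc7a1 was then called lower in 14-0-0, 14-7-0 and 14-7-2 (p = 0.0245, 0.0484 and 0.0428), and Slc16a1 lower in 14-7-2 (p = 0.0493). Pltp was then called higher in 14-14-0 (p = 0.00894) and Jam2 in home cage (p = 0.0445).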

How the data were processed

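Dorsal hippocampal RNA of 70 mice (TruSeq libraries) was sequenced as single reads, and the authors aligned them with ELAND and Bowtie, keeping unique hits, and quantified them with the Tuxedo tools. The labels name Bowtie, Cuffnorm and the build mm10, and versions were not given in the sources used here. The table used here, deposited by the authors, holds FPKM and no counts, so no count model or counting interval was used. Read totals in the study's supplement carry barcode names that the labels do not tie to samples, so depth is given in relative terms. Groups came from the sample labels. FPKM were tested as log2(FPKM + 0.1) with limma 3.58.1 (R 4.3.3), trended empirical Bayes, for the 12994 genes whose mean reached 1 FPKM (11352 were left out), in 10 comparisons of 20 libraries each, and called at an unadjusted p under 0.05 as in the study, whose Cyber-T program was replaced by limma. A fold on this scale understates the change of low genes. On data simulated for 14-0-0 against sedentary (12909 genes), 140, 187 and 198 of 200 genes changed by 0.25, 0.5 and 1 log2 units were called, and 4.75% of unchanged genes. Correlations used 100000 permutations (two-sided), with group means subtracted.

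The members, lists and tests were chosen with earlier results of these data known. The genes named were the 10 members in all comparisons, from each list at most 4 called genes of smallest p per comparison, and the 10 and 5 genes most like the endothelial mean and Vegfa, of which 1 is not reported here. The results were refitted under 12 other settings, of which 2 leave out a library. Covariates for GC slope (from GENCODE vM21 transcripts), the limit on the choroid plexus score and leaving out every other library (for the gene lists, sedentary replicate 6) were chosen after seeing the data.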

Additional observations from a re-analysis of the deposited data

Results flagged for a closer look

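Within groups of 10 libraries, 8 of 70 combinations of gene and group had a library whose gap to its nearest neighbour passed Dixon's 95% limit, where chance gives about 1 in 20 groups, or 3.5. Kdr was flagged for 14-7-2 replicate 9 at 4.35 FPKM (the other 9 libraries, 2.41 to 3.07) and for 0-0-2 replicate 9 at 5.69 FPKM (2.36 to 4.03). Slco1a4 was flagged for 14-7-2 replicate 9 at 18.2 FPKM (11.2 to 13.8) and for 14-14-0 replicate 1 at 20.9 FPKM (12.2 to 15.1). These 3 libraries are among the 15 with a choroid plexus score above 2, and 14-7-2 replicate 9 also has the lowest GC slope of all libraries (−0.56). Their part in the 2 genes' values was not tested.

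Esam was flagged low in 14-7-0 replicate 4, the library of lowest relative depth, at 4.80 FPKM (7.69 to 9.75), and high in 14-0-0 replicate 5, at 11.5 FPKM (7.96 to 9.38). Vegfa was flagged for home cage replicate 3 at 20.7 FPKM (10.5 to 14.5). This library too has a choroid plexus score above 2, and without it Vegfa was lower in home cage than in sedentary by 0.20 log2 units (p = 0.0301, limma), against 0.13 with it. Flt1 was flagged for 14-0-0 replicate 0 at 10.4 FPKM (7.78 to 9.14). The difference of each gene from sedentary was also compared between the harvest cohorts with an interaction term in limma, and 0 of 60 tests had an unadjusted p under 0.05. Of all genes tested, only 0.362% (14-7-0) to 2.79% (14-0-0) had such a p, so the count says little about these 10.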

How the results depend on the processing

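A pseudocount of 1, a minimum mean of 0.1 FPKM, no minimum, median ratio scaling, a joint fit of 7 groups and harvest cohort as a covariate ended no call of the 10 genes. The share of all genes called under each setting is not given beside the counts below, so they describe the 10 genes alone. Adjusted for the choroid plexus score, the members called were 1 in home cage, 0 in 14-0-0, 0 in 14-14-0, 0 in 14-7-0 against 14-0-0 and 0 in 14-14-0 against 14-7-0. With the library GC slope as a further covariate they were 1 in 14-0-0 and 0 in 14-14-0 and the same 2 contrasts, and the 1 was Cldn5, which turned from −0.16 to 0.29 (p = 0.0397, limma). With libraries under a choroid plexus score of 2 alone they were 0 in 14-0-0, 0 in 14-14-0 and 0 in both contrasts. Cohort 1 alone gave 1 in home cage and 0 in 14-7-0, 14-14-0 and 14-7-2 against 14-7-0. Cohort 2 alone gave 1 in home cage, 1 in 14-14-0 and 0 in 14-7-0, 14-0-0, 14-14-0 against 14-7-0 and 14-7-0 against 14-0-0, with 5 libraries per group, and Esam in 14-7-2 against 14-7-0 turned from 0.02 to −0.21 (p = 0.0401); other causes were not tested.

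Leaving out 1 library at a time gave 1 to 4 calls in home cage, 2 to 3 in 14-0-0, 0 to 2 in 14-7-0, 0 to 1 in 14-7-2, 0 to 4 in 14-14-0, 0 to 0 in 0-0-2, 1 to 2 in 14-7-0 against 14-0-0, 1 to 1 in 14-14-0 against 14-7-0, 2 to 4 in 14-7-2 against 14-7-0 and 0 to 1 in 14-0-0 against 0-0-2. Replicate numbers are shared by the groups, but same-numbered libraries did not deviate together in every pair. Their correlation was over 0.1 in 2 to 7 of 10 pairs per comparison with sedentary, and best with the own number in 0 to 3. The main fits did not pair libraries by number, and these values do not exclude a pairing. With a replicate block Slco1a4 was the 1 call in 14-0-0 against 0-0-2 (0.15, p = 0.0195), Vegfa (−0.19, p = 0.0356) replaced Tek in 14-7-0, and Slco1a4 was also called in home cage (p = 0.0187).

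Depth is given in relative terms, and at 14-7-0 replicate 4, which the fits of that group include, it was 0.0372. Without that library Tek in 14-7-0 was 0.16 (p = 0.0529, limma), against 0.19.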
